A study of Macaca mulatta with 23 samples.

Results

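The genes that copy DNA and supply its building blocks were followed in CD8+ effector memory T cells (TEM) of rhesus macaques given an antibody against interleukin-15 (IL-15) or a control antibody. Of 48 listed genes of DNA replication and nucleotide synthesis, 32 were measured among the 9190 genes tested on these arrays. A listed gene counted as measured where at least 1 of its probes had a detection p under 0.05 on at least 5 of the 23 arrays. The detection rule used all 23 arrays together.

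Replication starts at origins that the origin recognition complex marks and on which the MCM helicase is loaded. CDC45 and the GINS complex turn that helicase on, polymerases with their sliding clamp and clamp loader copy both strands, and a flap nuclease and a ligase join the fragments of the lagging strand. Thymidylate synthase, ribonucleotide reductase and thymidine kinase provide deoxynucleotides, and most of these genes are E2F targets whose transcripts accumulate as a cell enters S phase. In resting memory T cells in blood their levels are low, and IL-15 is a cytokine known to drive homeostatic division of natural killer cells and memory CD8+ T cells.

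The tested cells were Macaca mulatta CD8+ TEM sorted from peripheral blood mononuclear cells, 1 sort per array. The groups were 6 arrays after and 5 arrays before the antibody labelled Anti-IL15 Ab, and 6 arrays after and 6 before the antibody labelled IgG1 Control Ab, from 12 animals in all. Anti-IL-15 animals 1, 2, 4, 5 and 6 and all IgG1 animals had both times, and anti-IL-15 animal 3 had an array only after treatment. The sources used here do not give age, sex, dose or the interval between the times. Each array received RNA from 50 ng of input after amplification, so a level is a share of the RNA and says nothing of the amount in a cell. The array carries human probes, and a probe with a mismatch to the macaque transcript can read low.

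Levels are log2 of normalised bead intensity, a scale on which an undetected probe reads near 4.5, and changes are differences of these log2 values, after minus before treatment. Arrays detected 11263 to 14132 probes and 25 to 31 of the 32 members, and with 5 or 6 arrays in a group their number sets the precision. T cell identity could be read from CD3D and CD8A, detected on all 23 arrays, while CD3E was detected on 1 array and CD8B on 9. The cytotoxic genes GZMB and PRF1 were detected on all 23 arrays, and CCR7, which marks naive and central memory T cells, on 3. CD4, the natural killer receptor NCR1 and the platelet gene PF4 were detected on 0 arrays. The summed background-corrected signal of 7 T cell and CD8 markers was 21120 to 23660 after anti-IL-15, 20300 to 24580 before it, 18800 to 25250 after IgG1 and 22260 to 27440 before it. Sorted cells numbered 20000 to 109000 after anti-IL-15, 112000 to 274000 before it, 66000 to 259557 after IgG1 and 150000 to 500000 before it. The probe for 28S ribosomal RNA, a sign of how the amplification of total RNA went, ranged from a log2 level of 7.20 to 11.89 after anti-IL-15, 6.71 to 10.37 before it, 6.31 to 11.60 after IgG1 and 6.81 to 12.03 before it.

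After anti-IL-15, 2 members passed the test within animals, and both rose. They were GINS2, a subunit of the complex that activates the replicative helicase, and TYMS, thymidylate synthase, which makes the thymidine nucleotide of DNA. The 2 calls among 32 members stood against 0.816% of all genes called in either direction and 0.446% called higher. At an unadjusted p under 0.05, 6 members were higher (MCM4, MCM5, MCM7, GINS2, TYMS and TK1) and RPA2 was lower, against 6.33% and 8.98% of all genes. POLD3, also higher at that p, met the detection rule only through its arrays after anti-IL-15, so it is left out of that count and described by its values with the polymerases. The members were not displaced as a block, since 18 of 32 had a log2 change above 0, POLD3 among them, against 42.4% of all genes, with a median of 0.20 against -0.05 over all genes. In bulk RNA of a sorted population, a change in the share of cells with a transcript and a change in its level per cell cannot be told apart.

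Some natural killer and effector markers also changed on these arrays. Of 5 measured natural killer markers, 1 had a change above 0 after anti-IL-15 and 2 after IgG1, against 42.4% and 44.8% of all genes. Their medians were -0.06 and -0.02, with ranges of -0.99 to 0.38 and -1.13 to 0.32. Between the arms after treatment 2 of the 5 were above 0, with a median of -0.04. NCR3, an activating receptor of natural killer cells, fell after anti-IL-15 by 0.99 (limma adjusted p = 0.0452) and had a change of 0.11 after IgG1 (adjusted p = 0.821). After treatment it was the 1 gene of 9190 that limma called between the arms, at -1.70 (adjusted p = 0.0131). The summed signal of all 7 listed natural killer markers was lower after anti-IL-15 than before it in animals 1, 2, 4 and 6, with 829.6 after and 2641 before in animal 1. It was higher in animal 5, with 3428 after and 1616 before. CX3CR1, a chemokine receptor of cytotoxic effector cells, fell after both antibodies. It fell by 1.26 (limma adjusted p = 0.0391) after anti-IL-15 and by 1.43 (adjusted p = 0.0102) after IgG1. After anti-IL-15 CX3CR1 was the lowest of 10 effector markers, of which 5 were above 0, with a median of 0.01. After IgG1 2 of the 10 were above 0, with a median of -0.36. Limma called 1 of the 10 lower after anti-IL-15 and 4 after IgG1, against 0.816% and 2.19% of all genes called in either direction. The part of these markers in the rises of GINS2 and TYMS was not tested.

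After the IgG1 control antibody, limma called 0 members, against 2.19% of all genes. At an unadjusted p under 0.05, UHRF1 was higher and POLE3 was lower, against 8.19% and 11.0% of all genes. The change was above 0 for 15 of 32 members, against 44.8% of all genes, and their median was -0.02, against -0.04 over all genes.

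GINS2 had log2 levels of 7.85, 7.33, 7.47, 7.70, 5.83 and 7.41 after anti-IL-15 in animals 1 to 6, and 6.28, 5.60, 6.76, 5.07 and 6.32 before it in animals 1, 2, 4, 5 and 6. In IgG1 animals its levels were 4.95 to 6.58 (median 5.25) after treatment and 4.61 to 6.07 (median 5.19) before it. Each of the 5 paired anti-IL-15 animals was higher after treatment, and only animal 5 stayed within the range of the earlier arrays. The fitted change was 1.22 ± 0.21 (SE), a 2.32-fold rise (limma adjusted p = 0.00873), with a 95% interval of 0.79 to 1.65. With IgG1 it was 0.21 ± 0.19 (SE, limma adjusted p = 0.591), and 4 of 6 animals were higher.

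TYMS had log2 levels of 8.82, 7.96, 9.00, 8.51, 6.29 and 8.60 after anti-IL-15 in animals 1 to 6, and 6.95, 6.37, 7.64, 5.49 and 6.10 before it in the 5 animals with both times. IgG1 animals had 5.57 to 7.21 (median 6.11) after treatment and 5.26 to 7.09 (median 5.90) before it. All 5 paired anti-IL-15 animals were higher after treatment, by 0.80 to 2.50, and animal 5 again was the 1 array that overlapped the earlier ones. Its fitted change was 1.53 ± 0.26 (SE), a 2.88-fold rise (limma adjusted p = 0.00873), with a 95% interval of 0.99 to 2.07. With IgG1 the change was 0.25 ± 0.24 (SE, limma adjusted p = 0.611), and 5 of 6 animals were higher.

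Both calls were lost in several other fits. Without the animal as a block, limma's adjusted p was 0.179 for GINS2 and 0.119 for TYMS, and with the number of sorted cells as a covariate it was 0.655 for GINS2 and 0.736 for TYMS. Without anti-IL-15 animal 1 it was 0.0677 for both, and without animal 2 it was 0.0641 for GINS2 and 0.0550 for TYMS. In these fits the log2 changes lay between 1.09 and 1.69. Every array after anti-IL-15 came from fewer sorted cells, at most 109000, than every array before it, at least 112000.

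**Figure D1:**
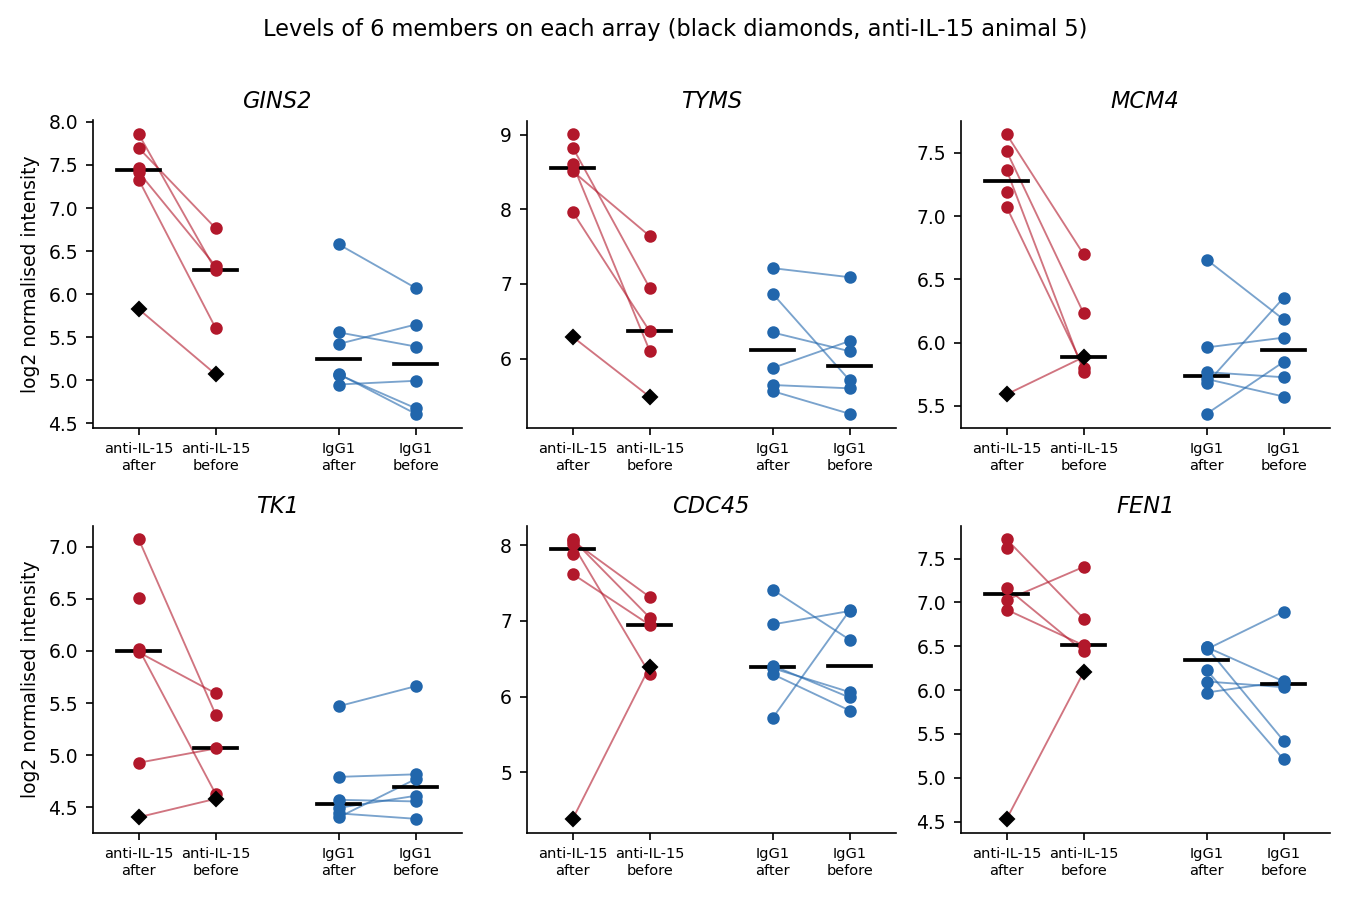
Log2 normalised intensity (vertical axis) of 6 members on each array, by group on the horizontal axis, with lines joining the arrays of 1 animal and black bars at group medians. Red marks anti-IL-15 animals and blue IgG1 animals, and the black diamonds of anti-IL-15 animal 5 lie lowest of the 6 arrays after anti-IL-15 in each panel, as for CDC45 at 4.38 with the other 5 arrays between 7.62 and 8.08.

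Among the origin genes, 10 of 13 listed were measured, 4 of the origin recognition complex and all of MCM2 to MCM7. None passed the test after either antibody, the lowest adjusted p being 0.0779 for MCM4 with anti-IL-15. The 6 MCM genes, whose proteins form the ring of the replicative helicase, all had a change above 0 after anti-IL-15, from 0.02 for MCM3 to 0.96 for MCM4, with a median of 0.44. After IgG1 3 of the 6 were above 0, with a median of -0.03, and for MCM3, at 0.09, a second probe gave -0.64.

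MCM4 had log2 levels of 7.64, 7.07, 7.19, 7.51, 5.59 and 7.36 after anti-IL-15 in animals 1 to 6, 6.70, 5.80, 6.23, 5.88 and 5.77 before it, 5.44 to 6.65 (median 5.74) after IgG1 and 5.57 to 6.35 (median 5.94) before IgG1. Apart from animal 5, which had the lowest level of the group, the arrays after anti-IL-15 lay above every other MCM4 value in the study. Animal 5 was set apart after the values were seen. Of all genes, 1.32% had at least 5 of 6 arrays after anti-IL-15 above every array after IgG1, and the share above all other groups was not counted. The fitted change was 0.96 ± 0.25 (SE, limma adjusted p = 0.0779) after anti-IL-15, with 4 of 5 animals higher, and -0.09 ± 0.23 (SE, adjusted p = 0.882) after IgG1. MCM4 passed the test in 3 of 24 other fits. Without anti-IL-15 animal 5 its log2 change was 1.27 (limma adjusted p = 0.0204). Without background correction it was 0.56 (limma adjusted p = 0.0441), and the authors' deposited log2 table gave the same change and adjusted p. Those last 2 fits are therefore not read as separate support. The fit without animal 5 leaves out the array with the lowest MCM4 level of its group, so it is not read as support either.

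MCM5 had log2 levels of 7.62, 6.32, 7.52, 7.13, 6.04 and 7.53 after anti-IL-15, 6.23, 6.02, 6.73, 6.08 and 6.08 before it, 5.65 to 6.39 (median 6.19) after IgG1 and 6.19 to 7.03 (median 6.47) before IgG1. Animals 1, 3, 4 and 6 after anti-IL-15 exceeded all IgG1 arrays of either time, and animals 2 and 5 lay among them. The share of all genes with such a split was not counted. Its change was 0.70 ± 0.24 (SE, limma adjusted p = 0.164) after anti-IL-15, with 4 of 5 animals higher, and -0.44 ± 0.22 (SE, adjusted p = 0.275) after IgG1, with 1 of 6 animals higher. MCM7 was higher in all 5 paired anti-IL-15 animals, by 0.09 to 0.89, and its fitted change of 0.46 ± 0.18 (SE) did not pass the test (limma adjusted p = 0.218). For MCM2 and MCM6 the fitted changes after anti-IL-15 were 0.41 and 0.42, with 4 of 5 animals higher for each.

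For the origin recognition genes the change after anti-IL-15 was 0.17 for ORC1, -0.45 for ORC2, -0.15 for ORC5 and -0.13 for ORC6, with adjusted p from 0.376 to 0.846. ORC2 and ORC6 were lower in all 5 paired animals. The ORC6 probe read between 13.82 and 14.16 on every array while the second ORC6 probe was detected on 0 arrays, so the 2 probes of this gene disagree. The licensing factors CDC6 and CDT1, which load the MCM ring, and ORC3 were each detected on 1 or 2 arrays at most and were not measured.

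CDC45, which joins MCM and GINS in the active helicase, had log2 levels of 8.06, 7.62, 7.88, 8.08, 4.38 and 8.01 after anti-IL-15, 7.32, 6.95, 7.04, 6.39 and 6.30 before it, 5.72 to 7.41 (median 6.39) after IgG1 and 5.82 to 7.14 (median 6.40) before IgG1. Apart from animal 5, set apart after the values were seen, the arrays after anti-IL-15 lay above every array of the other groups. Animal 5 lay below all of them with its probe undetected. The share of all genes with this pattern was not counted. The fitted change was 0.43 ± 0.38 (SE, limma adjusted p = 0.629), the largest standard error among the 32 members, and it was 1.04 (adjusted p = 0.159) without animal 5. GINS1, GINS3 and GINS4, the other subunits of the GINS complex, were detected on 0 to 4 arrays and were not measured.

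Of the 9 polymerase and primase genes, 7 were measured and none passed the test after either antibody. POLA2, the regulatory subunit of the polymerase that makes primers, had log2 levels of 9.04, 8.95, 9.10, 9.31, 7.91 and 9.23 after anti-IL-15, 8.69, 9.00, 8.67, 8.38 and 8.58 before it, 7.89 to 8.70 (median 8.40) after IgG1 and 7.91 to 8.40 (median 8.15) before IgG1. Both arms overlapped between the times. Its change was 0.23 ± 0.22 (SE, limma adjusted p = 0.670) after anti-IL-15 and 0.16 ± 0.20 (SE, adjusted p = 0.725) after IgG1.

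POLD3, an accessory subunit of the lagging-strand polymerase delta, was close to background, detected on 4 of 6 arrays after anti-IL-15, 2 of 5 before it, 1 of 6 after IgG1 and 1 of 6 before IgG1. Its log2 levels were 5.07, 4.59, 4.76, 5.25, 5.65 and 5.39 after anti-IL-15, 4.86, 4.94, 4.56, 4.88 and 4.55 before it, 4.51 to 5.07 (median 4.72) after IgG1 and 4.68 to 4.92 (median 4.82) before IgG1. Here anti-IL-15 animal 5 had the highest level of its group, and the 4 groups overlapped. The change was 0.43 ± 0.17 (SE, limma adjusted p = 0.213) after anti-IL-15 and -0.06 ± 0.15 (SE, adjusted p = 0.863) after IgG1. The catalytic and accessory subunits PRIM1, POLD1, POLD2, POLE2 and POLE3 had changes between -0.21 and 0 after anti-IL-15 and between -0.58 and 0.01 after IgG1, with POLE3 the lowest of them after IgG1. For PRIM1, at -0.14 after anti-IL-15, a second probe gave 0.07.

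Of the 9 genes of the sliding clamp, its loader and RPA, 6 were measured and none passed the test after either antibody. The sliding clamp PCNA, whose best probe was detected on 3 arrays, was not measured. RPA2, a subunit of the protein that coats single-stranded DNA, had log2 levels of 9.66, 10.04, 10.30, 9.97, 9.99 and 10.46 after anti-IL-15, 10.91, 10.57, 10.71, 10.51 and 10.56 before it, 10.04 to 10.95 (median 10.40) after IgG1 and 10.01 to 10.96 (median 10.71) before IgG1. Every array after anti-IL-15 lay below every array before it, as for 0.881% of all genes, and all 5 paired animals were lower, by 0.09 to 1.25. The change was -0.62 ± 0.19 (SE, limma adjusted p = 0.123) after anti-IL-15 and -0.20 ± 0.17 (SE, adjusted p = 0.575) after IgG1.

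RPA1 and RPA3, the partners of RPA2, had changes of -0.20 and 0.25 after anti-IL-15, with adjusted p of 0.750 and 0.634, and a second RPA1 probe gave 0.22. RFC2, a clamp loader subunit, was detected on 1 of 6 arrays after anti-IL-15, 2 of 5 before it, 3 of 6 after IgG1 and 0 of 6 before IgG1. Its log2 levels were 4.37, 4.45, 4.80, 4.81, 4.61 and 5.02 after anti-IL-15, 4.67, 4.77, 5.22, 4.99 and 4.76 before it, 4.47 to 5.20 (median 4.88) after IgG1 and 4.36 to 4.79 (median 4.74) before IgG1. All 4 groups overlapped near background, and because the probe was not detected on any array before IgG1 no fold is given for that arm. The change after anti-IL-15 was -0.23 ± 0.15 (SE, limma adjusted p = 0.499), with 1 of 5 animals higher. RFC4, another loader subunit, had changes of 0.31 after anti-IL-15 and 0.47 after IgG1, and its second probe gave -0.26 and -0.41.

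Both genes of lagging-strand maturation were measured, and neither passed the test after either antibody. FEN1, the flap nuclease, had log2 levels of 7.72, 6.92, 7.63, 7.03, 4.53 and 7.17 after anti-IL-15, 6.82, 6.51, 7.41, 6.21 and 6.44 before it, 5.97 to 6.49 (median 6.35) after IgG1 and 5.21 to 6.90 (median 6.07) before IgG1. Except for animal 5, each array after anti-IL-15 exceeded every array of either time in the IgG1 arm, and within the anti-IL-15 arm the times overlapped. The share of all genes with this pattern was not counted. The change was -0.0039 ± 0.31 (SE, limma adjusted p = 0.996) after anti-IL-15, with 3 of 5 animals higher, and 0.41 (adjusted p = 0.620) without animal 5. After IgG1 it was 0.33 ± 0.28 (SE, adjusted p = 0.571), and a second FEN1 probe gave -0.02 after anti-IL-15 and -0.12 after IgG1. Between the arms after treatment the first probe gave 0.54 and the second -0.07, so the probes disagree there.

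LIG1, the replicative DNA ligase, had log2 levels of 9.14, 8.72, 9.28, 8.88, 8.52 and 9.18 after anti-IL-15, 8.97, 8.51, 8.76, 8.22 and 8.50 before it, 7.79 to 8.76 (median 8.32) after IgG1 and 8.29 to 8.88 (median 8.55) before IgG1. It was higher in all 5 paired anti-IL-15 animals, by 0.11 to 0.69, and lower in all 6 IgG1 animals, by 0.06 to 0.59. The fitted changes were 0.30 ± 0.18 (SE, limma adjusted p = 0.450) and -0.31 ± 0.16 (SE, adjusted p = 0.322). Their difference of 0.60 ± 0.24 (SE) did not pass the test (limma adjusted p = 0.464).

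In deoxynucleotide supply, 3 of 6 listed genes were measured, and TYMS was the 1 that passed the test. TK1, the thymidine kinase that salvages thymidine, was detected on 4 of 6 arrays after anti-IL-15, 3 of 5 before it, 1 of 6 after IgG1 and 1 of 6 before IgG1. Its log2 levels were 7.07, 4.93, 6.51, 5.99, 4.41 and 6.02 after anti-IL-15, 5.39, 5.07, 5.59, 4.58 and 4.63 before it, 4.41 to 5.47 (median 4.53) after IgG1 and 4.39 to 5.66 (median 4.69) before IgG1. Animals 1, 3, 4 and 6 lay above every other TK1 value, and animals 2 and 5 lay among the arrays of the other groups. How many of all genes split this way was not counted. The change was 0.63 ± 0.23 (SE, limma adjusted p = 0.186) after anti-IL-15, with 3 of 5 animals higher, and -0.11 ± 0.21 (SE, adjusted p = 0.833) after IgG1. RRM1, the large subunit of ribonucleotide reductase, had log2 levels of 9.75 to 11.33 over the 23 arrays, with changes of 0.22 after anti-IL-15 and 0.29 after IgG1. Its S phase partner RRM2 was detected on 0 arrays.

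The maintenance methyltransferase DNMT1 and its targeting factor UHRF1 were the 2 of 4 genes measured for copying methylation and chromatin at the fork, and neither passed the test after either antibody. DNMT1 had log2 levels of 11.38, 11.15, 11.26, 11.45, 10.36 and 11.47 after anti-IL-15, 11.81, 11.34, 11.06, 11.27 and 11.08 before it, 10.85 to 11.47 (median 11.29) after IgG1 and 11.00 to 11.93 (median 11.64) before IgG1. The groups overlapped, and its change was -0.15 ± 0.18 (SE, limma adjusted p = 0.748) after anti-IL-15 and -0.35 ± 0.17 (SE, adjusted p = 0.264) after IgG1. UHRF1 had log2 levels of 5.84, 5.84, 5.73, 6.02, 5.52 and 5.39 after anti-IL-15, 5.65, 5.74, 5.46, 4.65 and 6.01 before it, 4.53 to 6.21 (median 5.62) after IgG1 and 4.68 to 5.66 (median 4.82) before IgG1. Its changes were 0.22 ± 0.23 (SE, limma adjusted p = 0.691) and 0.56 ± 0.21 (SE, adjusted p = 0.143), and a second UHRF1 probe gave 0.52 and -0.07. The chromatin assembly subunits CHAF1A and CHAF1B were detected on 0 arrays.

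**Figure D2:**
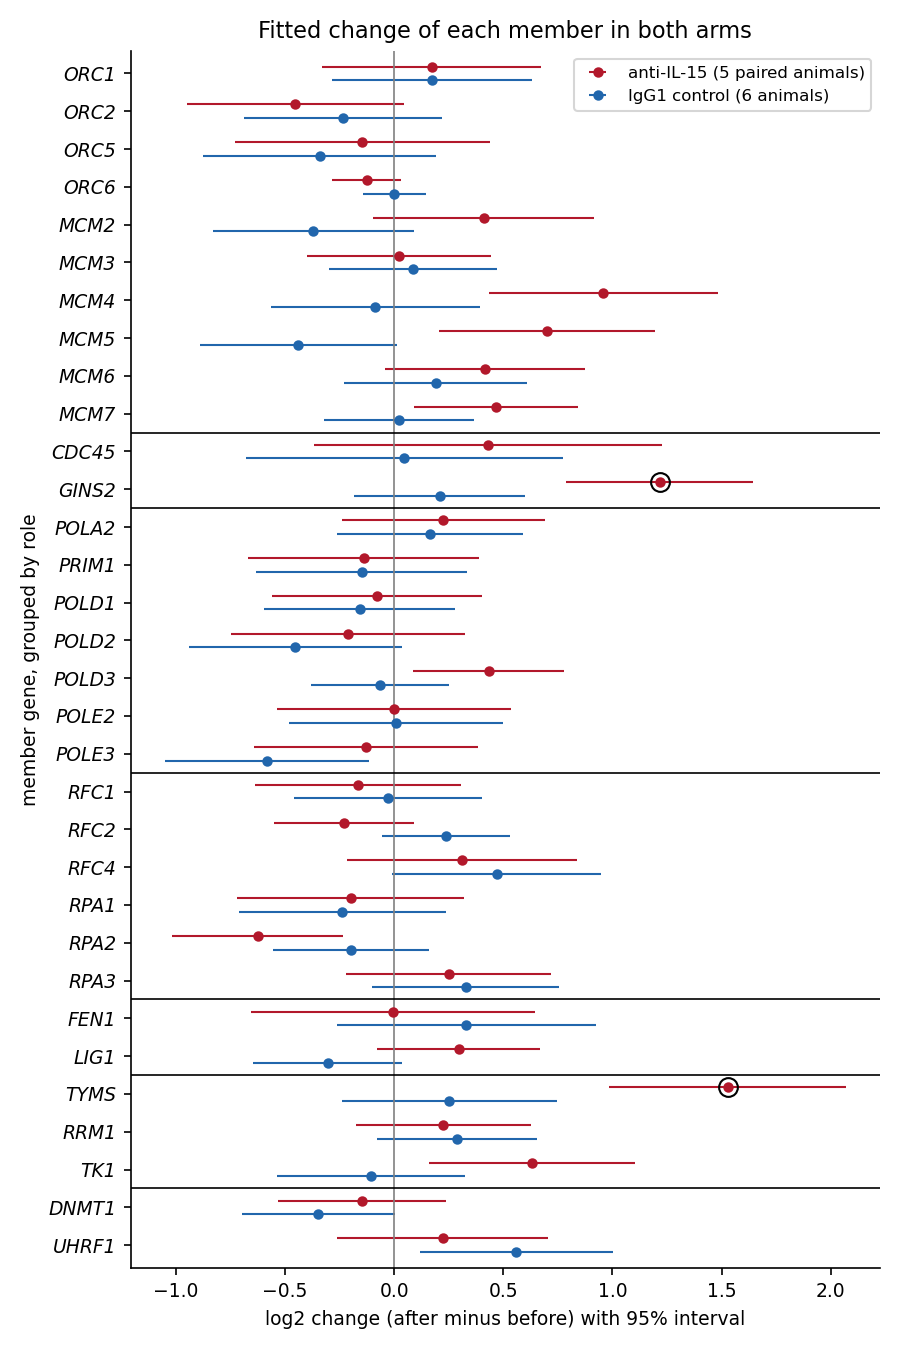
Fitted log2 change (after minus before treatment, horizontal axis) of the 32 members with its 95% interval, anti-IL-15 in red above IgG1 in blue for each gene, with horizontal lines between role groups. Black rings mark the 2 changes with a limma adjusted p under 0.05, TYMS at 1.53 and GINS2 at 1.22, both after anti-IL-15.

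By animal, 4 members were higher after anti-IL-15 in all 5 paired animals, namely MCM7, GINS2, LIG1 and TYMS, against 4.96% of all genes, and 3 were lower in all 5, namely ORC2, ORC6 and RPA2, against 7.16%. After IgG1, 0 members were higher in all 6 animals, against 4.96% of all genes, and LIG1 was lower in all 6, against 5.77%. The median change over the members was 0.21, 0.02, 0.20, -0.23 and 0.65 in anti-IL-15 animals 1, 2, 4, 5 and 6. Over all genes the medians in these animals were -0.07, -0.07, 0.02, -0.09 and 0.01. In IgG1 animals the medians over the members ran from -0.09 to 0.11, and over all genes from -0.11 to 0.06. Anti-IL-15 animal 6 had 25 members higher and 7 lower, with 51% of all genes higher. Anti-IL-15 animal 5 had 10 higher and 22 lower, with 42.6% of all genes higher. The members of 1 animal come from the same arrays and are not replicates, so these counts only describe each animal.

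**Figure D3:**
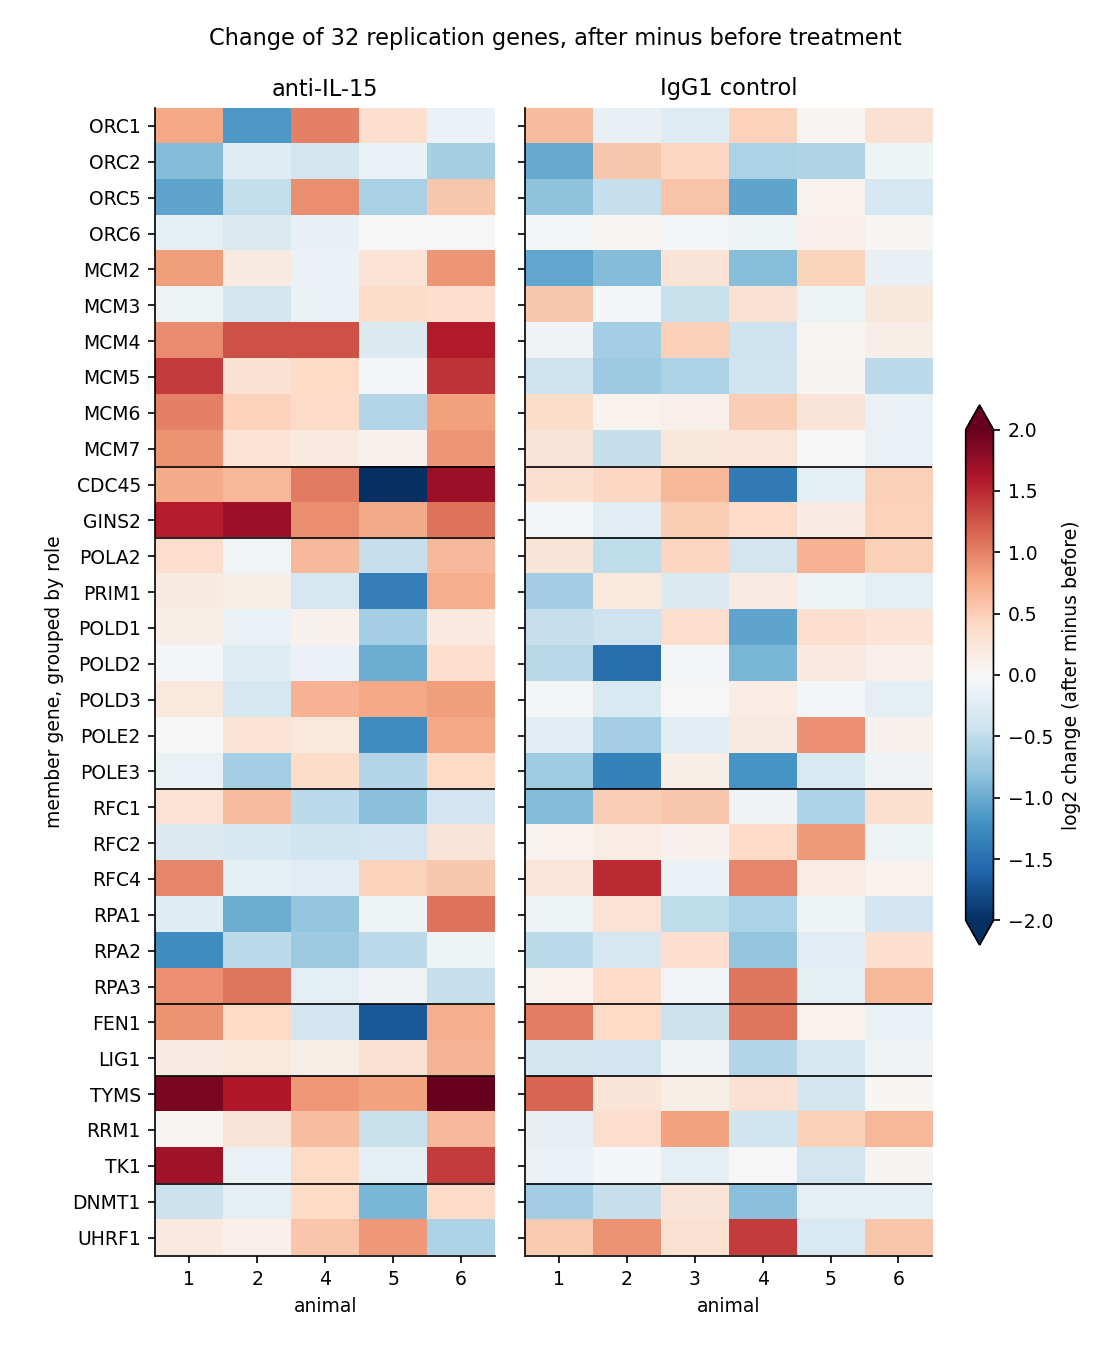
Log2 change (colour) of each of the 32 members, in rows grouped by role, in each animal with both times, in columns, with anti-IL-15 on the left and IgG1 on the right. Red is higher after treatment, and the GINS2 and TYMS rows are red in all 5 anti-IL-15 animals. The column of anti-IL-15 animal 5 holds 22 members that were lower after treatment and 10 that were higher, with 42.6% of all genes higher in that animal.

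Whether the arms differed in their changes was tested as the change after anti-IL-15 minus the change after IgG1. Limma called 0 members, against 0.0109% of all genes. At an unadjusted p under 0.05, 7 were higher (MCM2, MCM4, MCM5, GINS2, LIG1, TYMS and TK1), against 4.72% of all genes. POLD3 was also higher and RFC2 lower, against 4.97% of all genes lower, but POLD3 met the detection rule only through its arrays after anti-IL-15 and RFC2 would have missed it without its arrays after IgG1, so neither is counted. The difference was 1.27 ± 0.35 (SE) for TYMS and 1.01 ± 0.28 (SE) for GINS2, each with a limma adjusted p of 0.292, and 1.14 ± 0.32 (SE, adjusted p = 0.295) for MCM5. It was above 0 for 19 of 32 members, POLD3 among them, against 48.5% of all genes. The rises of GINS2 and TYMS after anti-IL-15 are thus not shown to differ from the changes after IgG1.

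The arrays after treatment were also compared between the arms. These comparisons use the same arrays after anti-IL-15 as the changes above and are not independent of them. Limma called 0 of 32 members, against 0.0109% of all genes, and at an unadjusted p under 0.05 10 were higher after anti-IL-15 and 0 lower, against 3.85% and 4.11% of all genes. Those 10 were MCM2, MCM4, MCM5, MCM6, MCM7, GINS2, POLA2, LIG1, TYMS and TK1. The difference was above 0 for 27 of 32 members, POLD3 among them, against 45.7% of all genes, with a median of 0.32 against -0.02. It was 1.94 ± 0.41 (SE, limma adjusted p = 0.105) for TYMS, 1.82 ± 0.34 (SE, adjusted p = 0.0750) for GINS2, 1.31 ± 0.31 (SE, adjusted p = 0.171) for MCM2 and 1.19 ± 0.32 (SE, adjusted p = 0.247) for MCM4. There were 0 members with every anti-IL-15 array above every IgG1 array, against 0.261% of all genes. For 8 members (MCM2, MCM4, MCM7, CDC45, GINS2, POLA2, FEN1 and TYMS) at least 5 of the 6 did, against 1.32% of all genes, a rule set after the values were seen. FEN1 counts there by its brighter probe, with a difference of 0.54, while its second probe gave -0.07.

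**Figure D4:**
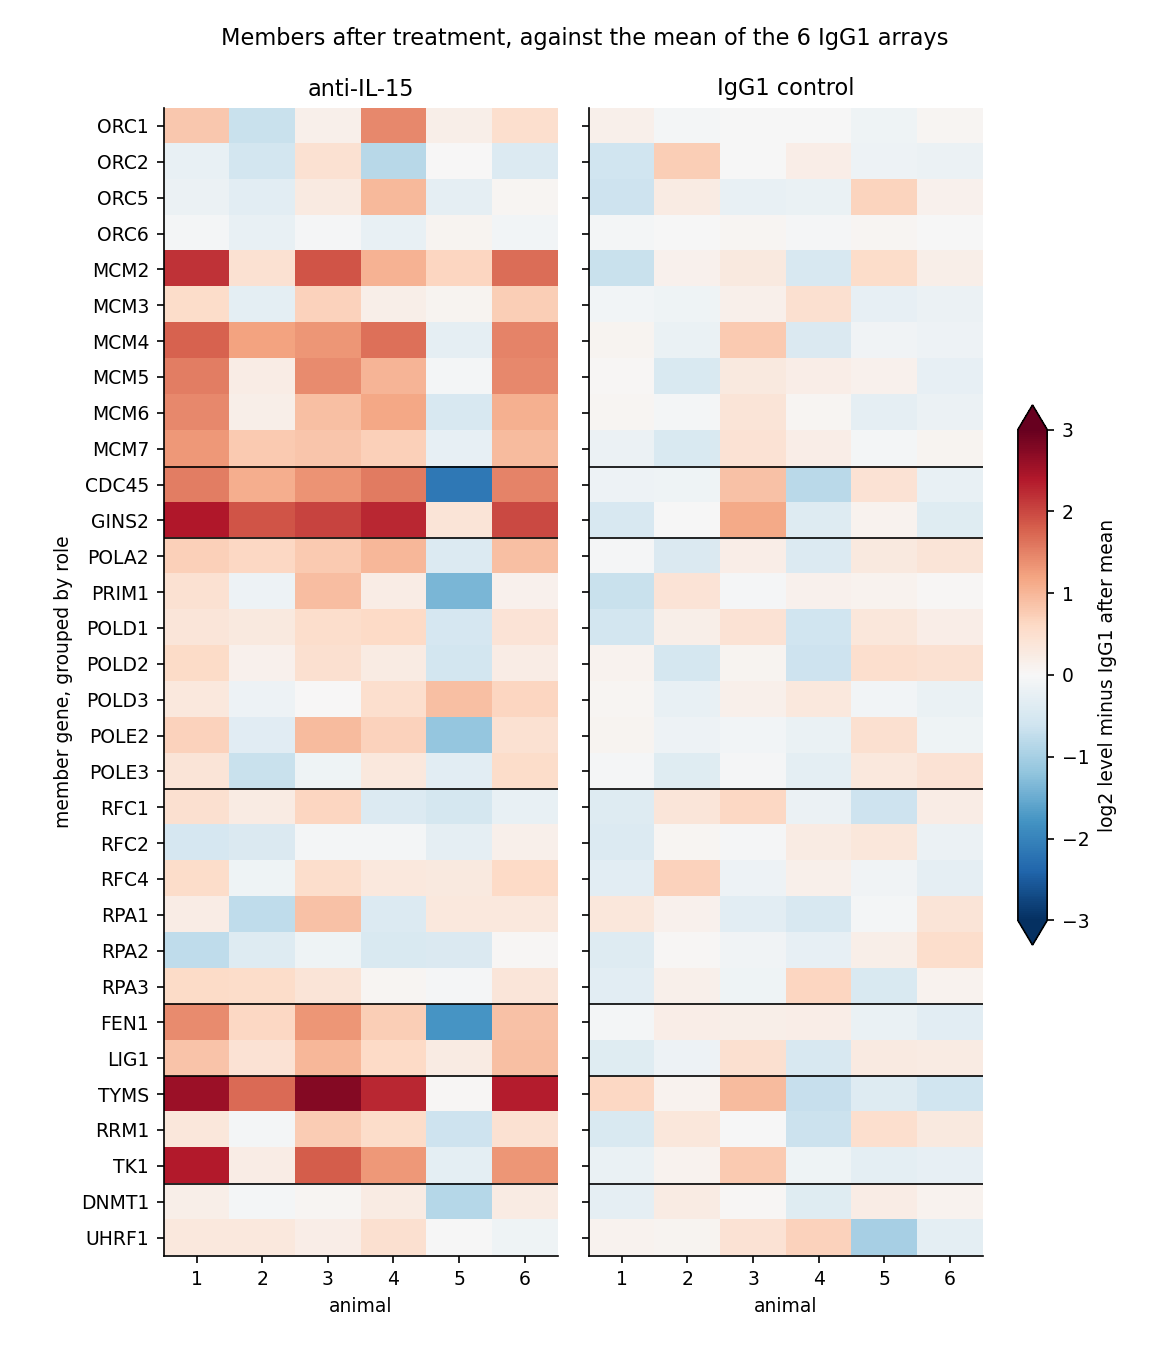
Log2 level of each of the 32 members after treatment minus the mean of the 6 IgG1 arrays after treatment (colour), with members in rows by role and animals in columns, anti-IL-15 on the left and IgG1 on the right. In the anti-IL-15 columns of animals 1, 3, 4 and 6 the median over the members lies between 0.53 and 0.72, in animal 2 at 0.15 and in animal 5 at -0.26, and the IgG1 columns lie between -0.18 and 0.15.

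Before treatment no difference between the arms passed the test, though more members lay higher in the anti-IL-15 arm than lower. Limma called 0 members, against 0% of all genes. At an unadjusted p under 0.05, 6 members were higher in the anti-IL-15 arm (ORC1, GINS2, POLA2, RFC4, FEN1 and UHRF1) and 0 lower, against 4.93% and 5.56% of all genes. The difference was above 0 for 23 of 32 members, against 47.2% of all genes, with a median of 0.17 against -0.02. For GINS2 it was 0.78 ± 0.32 (SE, limma adjusted p = 0.425), for TYMS 0.51 ± 0.37 (SE, adjusted p = 0.649) and for MCM4 0.12 ± 0.22 (SE, adjusted p = 0.876).

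The array of anti-IL-15 animal 5 after treatment stood apart for the replication genes. It was the lowest of the 6 for 19 of 32 members, against 24.9% of all genes, and its change was the lowest of the 5 paired animals for 17 members, against 24.4%. Without that animal the comparison after treatment called 4 members higher (CDC45, GINS2, MCM4 and TYMS) and 19 of 9190 genes in all. Limma's adjusted p was then 0.00448 for both GINS2 and TYMS. Animal 5 was singled out by its low levels of these same members, so those calls are not independent of that choice and are not read as support. With all 6 arrays after anti-IL-15 limma called 0 members. On the array of animal 5 after treatment the 28S level was 11.89, the highest of the group, and 109000 cells had been sorted, the most of the group. Its summed background-corrected signal of platelet and erythrocyte markers was 30980, against 1414 to 6649 on the other 5 arrays, and the same animal had 26850 before treatment. That sum took the 8 of 9 markers with a probe, 4 of them measured. Haemoglobin probes were the brightest of them, with HBB reaching a log2 level of 14.17 over the 23 arrays and the platelet gene PPBP 7.14. The sum of all 7 natural killer markers, 5 of them measured, was 3428, against 771.8 to 2805 on the other 5. Over the other groups the platelet and erythrocyte sum ran from 1223 to 26850 before anti-IL-15, 1158 to 13690 after IgG1 and 904.9 to 19160 before IgG1, with PF4 and ITGA2B undetected. The natural killer sum ran from 1616 to 3312, 1432 to 3762 and 1552 to 3545 in these 3 groups, with NCR1 undetected. The part of these values in the low replication levels of animal 5 was not tested.

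Other genes of the pathway were read from 5 further lists. Of 30 other fork and origin genes 18 were measured and none passed the test after anti-IL-15, with 9 above 0 and a median of -0.04. The 2 with the smallest p were POLD4 and TOP2A. POLD4, a small polymerase delta subunit, had 0.64 (limma adjusted p = 0.158), and TOP2A, the topoisomerase that untangles copied DNA, 0.53 (adjusted p = 0.159). TOP2A was detected on 5 arrays, so it would miss the detection rule without any 1 of them. Its mean log2 level was 5.41 after anti-IL-15 and 4.46 to 4.73 in the other groups, and its rise is not separate from the rule. Among G1/S regulators 15 of 20 were measured and 1 rose, the S phase cyclin CCNA2, at 0.92 ± 0.21 (SE, limma adjusted p = 0.0427), higher in all 5 animals, against 0.446% of all genes called higher. None of 11 measured repair and checkpoint genes and none of 26 measured genes of other nucleotide metabolism passed the test. ATRIP and BARD1 had changes of -0.35 and -0.43, and the purine synthesis gene PAICS and the nucleotide pyrophosphatase DCTPP1 had 0.52 and 0.61. After IgG1 the change was 0.62 for PAICS (limma adjusted p = 0.0659, 5 of 6 animals higher) and 0.19 for DCTPP1. Of 30 mitosis genes 22 were measured. The kinetochore gene CENPW (1.59, limma adjusted p = 0.0189) and the anaphase activator CDC20 (2.09, adjusted p = 0.0243) rose after anti-IL-15, against the same 0.446%. The mitotic cyclin CCNB2 also passed the test (0.89, limma adjusted p = 0.0354) but is set apart from them. Above 0 were 19 of the 22, against 42.4% of all genes. These include CENPA, detected on 6 arrays, and UBE2C, detected on 7. CCNB2 was detected on 9 of 23 arrays, with a mean log2 level of 5.84 after anti-IL-15 and 4.53 to 4.78 in the other groups. Whether CCNB2 would meet the detection rule without the arrays after anti-IL-15 was not tested. The same holds for other genes of these lists that were detected on few arrays. After IgG1 the change was 0.40 for CENPW and 0.97 for CDC20, with limma adjusted p of 0.455 and 0.147. Limma called none of these 5 lists' genes for the difference between the arms, in which CENPW had 1.19 (adjusted p = 0.371), CDC20 1.12 (adjusted p = 0.529), CCNB2 0.82 (adjusted p = 0.348) and CCNA2 0.93 (adjusted p = 0.346). After IgG1 none of these 5 lists held a gene that passed the test.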

How the data were processed

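RNA of sorted CD8+ TEM was measured on 23 Illumina bead arrays. The deposited signal table gives 1 linear intensity per probe and array, with no background subtraction or normalisation and medians of 92 to 104 per array. It also gives a detection p-value per probe, as deposited. The authors also deposited log2 intensities, which served as an alternative. Limma is named in the submitters' processing notes without a version.

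Intensities were corrected by normexp with an offset of 16 and negative controls inferred from detection p-values, normalised by quantiles and logged to base 2 with neqc of limma 3.58.1 in R 4.3.3. Of 47230 probes 15744 were kept, those detected at p under 0.05 on 5 or more arrays, after 9 probes with a signal of 0 on some array were left out. Genes were named from the platform annotation, and the brightest kept probe stood for a gene, which gave 9190 genes. Of 74 probes of the 48 listed genes 38 were kept, and 6 members had several, which is said where they disagree in direction for a value given.

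The treatment and time labels gave the groups and the donor label the pairs. Arrays of 1 animal deviated from their group means together in all 11 pairs (correlations 0.0515 to 0.513, median 0.290, against -0.0655 between animals). Changes and their difference came from 1 limma fit with animal as a fixed block, in which anti-IL-15 animal 3 adds nothing to a change, while the arms were compared in fits over the 12 arrays after and the 11 before treatment. P-values were adjusted over 9190 genes (Benjamini-Hochberg, threshold 0.05). Those of the changes and their difference rest on how the within-animal change varied between animals. Those of the comparisons between the arms rest on how levels varied between animals. Values in every group are given for members past the threshold and, per role, for the 2 with the smallest p after anti-IL-15. Of the further lists, members past the threshold or else the 2 with the smallest p are named. Members, lists and role groups were chosen with earlier results of these data known. Certain genes of the lists are not reported here.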

Additional observations from a re-analysis of the deposited data

Results flagged for a closer look

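Levels that stood far from the other arrays of their group, by the gap to the nearest array over the range of the group, were found in 14 of 128 sets of 1 member in 1 group, 10.9%. For a single set chance gives about 1 in 20. The sets share the same arrays and are not independent, so the 10.9% is not read as an excess over chance. Of the 14 levels, 7 lay in the 6 arrays after anti-IL-15, and all 7 were the low level of animal 5, from 1 array. They were log2 levels of 5.59 for MCM4, 4.38 for CDC45, 5.83 for GINS2, 7.91 for POLA2, 7.31 for POLD1, 4.53 for FEN1 and 10.36 for DNMT1.

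Before anti-IL-15 they were RFC1 at 4.62 in animal 2 and RPA1 at 4.96 in animal 6, both low. After IgG1 they were GINS2 at 6.58 and TK1 at 5.47, both high in animal 3. Before IgG1 they were TK1 at 5.66 in animal 3, MCM2 at 6.35 in animal 2 and RFC1 at 5.47 in animal 1, all high.

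LIG1 was higher after treatment in every paired anti-IL-15 animal and lower in every IgG1 animal. The difference of the fitted changes was 0.60 on the log2 scale, and it did not pass limma's test (adjusted p = 0.464).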

How the results depend on the processing

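Of the 32 members, 2 were called after anti-IL-15. The count was 1 (TYMS, with 19 members measured) where every array had to detect a probe, and 0 with cell number as a covariate, with no replicate block and with animal as a random block (limma adjusted p = 0.0724 for GINS2 and 0.0525 for TYMS). Leaving out 1 animal gave 0 (without anti-IL-15 animal 1 or 2) to 3 members. After IgG1 the count of 0 became 1 (POLE3, lower) with the 28S level as a covariate. In the comparison after treatment the count of 0 became 2 (GINS2 and MCM2) with that covariate, and leaving out 1 animal gave 0 to 4, with 1 (GINS2) without IgG1 animal 3 and 4 without anti-IL-15 animal 5. The counts of 0 for the difference between the arms and before treatment did not move in any alternative run. No sign of a called value reversed. Slide as a block was not run, since the sources used here name no slide. Keeping the probes with a signal of 0 was added after seeing the data and left the count at 2. Members near background, such as RFC2, POLD3 and TK1, are limited by signal.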
